A study of Mus musculus with 6 samples.

Results

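Type I/III interferon-stimulated genes were examined in the small intestinal mucosa of mice with and without an epithelial deletion of HuR, the RNA-binding protein encoded by Elavl1. The 43 listed symbols were chosen by name, with earlier results of these data known, and 41 of them were found among the 32285 features of the count tables. Mx1 and Mx2 were not analysed here. Values of these genes chose no cell, since barcodes were selected on the UMIs of other marker genes, but counts and medians over the list below are descriptions and not independent evidence of a direction.

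Interferons alpha, beta and lambda signal through receptor-bound kinases to a factor complex that holds STAT2 and IRF9, binds the interferon-stimulated response element and switches on genes that restrict viruses. In the intestine, type I interferons act widely, whereas the lambda receptor is found mainly on epithelial cells. Many of these genes have a resting level without infection.

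IE-HuR-/- mice carried HuR fl/fl alleles and a Cre driven by the villin promoter, which is active in intestinal epithelium, and HuR fl/fl mice without Cre served as control littermates. All mice were 6 to 8 weeks old and of C57BL/6 background, kept pathogen-free, and the labels call the controls wild-type. The methods state 24 h without food before experiments, whereas the labels give normal feeding. Cells released from the mucosa by chelation and a protease were sequenced by droplets, with 3 libraries under each label, and each library is taken here as 1 animal. Each RNA molecule carried a unique molecular identifier (UMI), and the 6 libraries held 60706 barcodes. Library totals were between 59518012 and 91818560 UMIs.

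Marker gates placed 54067 barcodes in 6 classes, namely 41701 enterocyte, 4896 goblet, 171 tuft, 152 cycling progenitor, 6752 T cell and 395 myeloid barcodes. Levels are given as CPM, the UMIs of a gene divided by all UMIs of the class in a library and put on the usual CPM scale, which were not divided by gene length. The preparation was epithelial and checked by EPCAM in the methods, so the immune classes are the lymphoid and myeloid cells that came with it. Libraries of 1 label differed by more than counting error (chi-square per degree of freedom 10.7 to 33.1), and any pair of libraries shared between 22 and 44 barcodes. Elavl1 was found in enterocytes at 28.4, 31.6 and 28.3 CPM in the control libraries and at 29.2, 28.7 and 30.5 CPM in those labelled IE-HuR-/- (log2 fold change 0.13, SE 0.0473, edgeR adjusted p = 0.0208). The Elavl1 values overlapped between labels, with a mean of 29.4 CPM under each, and the fold change is that after TMM scaling. The values were not lower under the deletion label, so every direction below is that of the libraries labelled IE-HuR-/-. For the protein, the paper reports that HuR staining was almost absent from small intestinal epithelial cells of IE-HuR-/- mice. A count per gene does not show whether the deleted part was read.

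The members lie on 16 chromosomes, several of them in family clusters. Ifit2, Ifit3, Ifit1bl1, Ifit3b and Ifit1 lie on chromosome 19 between bases 34550694 and 34650009 (GRCm38, GENCODE annotation), Oas1a, Oas1g, Oas2, Oas3, Oasl1 and Oasl2 on chromosome 5, and Trim30a and Trim30d on chromosome 7. Dtx3l and Parp9 lie on opposite strands of chromosome 16 and overlap at their ends. Near-identical pairs (Ifit3 and Ifit3b, Oas1a and Oas1g) share sequence, and the split of their reads is uncertain.

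Promoters of 34 members were found in RefSeq (GRCm38.p6), as windows from 250 bases before to 50 bases after the start of transcription. The core of the interferon-stimulated response element (GAAA, then any 2 bases, then GAAA) was searched on either strand, with overlapping matches allowed. It was present for 18 of the 34 members (52.9%) and for 3.99% of 27025 genes with a window. The stretches below lie upstream of the start of transcription, with matches in capitals. They are shown for some genes with a match that are described in detail here, and for the similar partners Ifit3b and Trim30d. Genes described in detail were picked in part by the size of their label difference. All genes shown were called lower in enterocytes. Upstream matches of other members, among them Oas3, Rsad2, Oas1a and Oas1g, are not shown.
Ifit1, chr19:34640755-34640843, plus strand: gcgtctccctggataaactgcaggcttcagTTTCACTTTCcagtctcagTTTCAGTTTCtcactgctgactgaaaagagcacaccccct
Ifit3, chr19:34583343-34583446, plus strand: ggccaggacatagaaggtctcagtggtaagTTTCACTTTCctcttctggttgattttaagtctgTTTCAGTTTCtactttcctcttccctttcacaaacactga
Ifit3b, chr19:34607739-34607842, plus strand: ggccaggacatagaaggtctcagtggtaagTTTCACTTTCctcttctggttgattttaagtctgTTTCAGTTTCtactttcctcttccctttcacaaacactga
Isg15, chr4:156200845-156200926, minus strand: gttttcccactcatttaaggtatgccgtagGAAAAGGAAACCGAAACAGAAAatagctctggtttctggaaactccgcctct
Ddx60, chr8:61928004-61928086, plus strand: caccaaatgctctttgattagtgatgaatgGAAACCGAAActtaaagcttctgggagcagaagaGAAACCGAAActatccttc
Trim30a, chr7:104465194-104465259, minus strand: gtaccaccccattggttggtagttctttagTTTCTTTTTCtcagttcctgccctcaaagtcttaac
Trim30d, chr7:104507851-104507920, minus strand: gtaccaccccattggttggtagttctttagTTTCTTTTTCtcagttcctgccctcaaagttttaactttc

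The stretches of Ifit3 and Ifit3b were identical over 104 bases, and those of Trim30a and Trim30d were identical at 65 of the 66 bases compared. Isg15 held 3 overlapping matches. Irf7, Oasl1, Ifi44 and Ifit2 had no match in this window, which says only that these letters are not in it.

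The first question was which cells carried these RNAs in control mice. Enterocytes held between 84.2% and 85.7% of the member UMIs of the 6 classes in the control libraries, and between 81.1% and 82.8% of all UMIs of those classes. The summed level of the members was 2606, 2505 and 2532 CPM in enterocytes, and 2432, 2281 and 2379 CPM in goblet cells. It was 4393, 3098 and 2721 CPM in tuft cells, a chemosensory epithelial type, and 577, 725 and 667 CPM in cycling progenitors. T cells were at 1420, 1371 and 1399 CPM, and myeloid cells at 2990, 4138 and 3223 CPM. Myeloid cells were above enterocytes in each control library, and Ifitm3 alone made 1294, 1114 and 1603 CPM of their sums. Progenitors were below every other class in each control library.

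Barcodes of other classes also carry enterocyte RNA, and whether it is free in the droplets, from attached cells or from doublets cannot be told apart here. Its share was read from Apoa1, Apoa4, Apoc3, Fabp1, Fabp2 and Rbp2, abundant lipid-handling RNAs of enterocytes. The ratio of their level in T cells to that in enterocytes was between 0.0639 and 0.127 in the control libraries, and a member was read as background in a class when its ratio to enterocytes was no larger. With the reference read in each class, 38 of the 41 members were above it in T cells in each control library, and 34 were in myeloid cells. In progenitors 18 were. The share of all genes above the reference was not computed, so these counts do not set the members apart from other genes. For goblet and tuft cells the reference ratio was high, between 0.531 and 0.726 in the control libraries, so that low levels there cannot be told apart from enterocyte RNA.

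**Figure D1:**
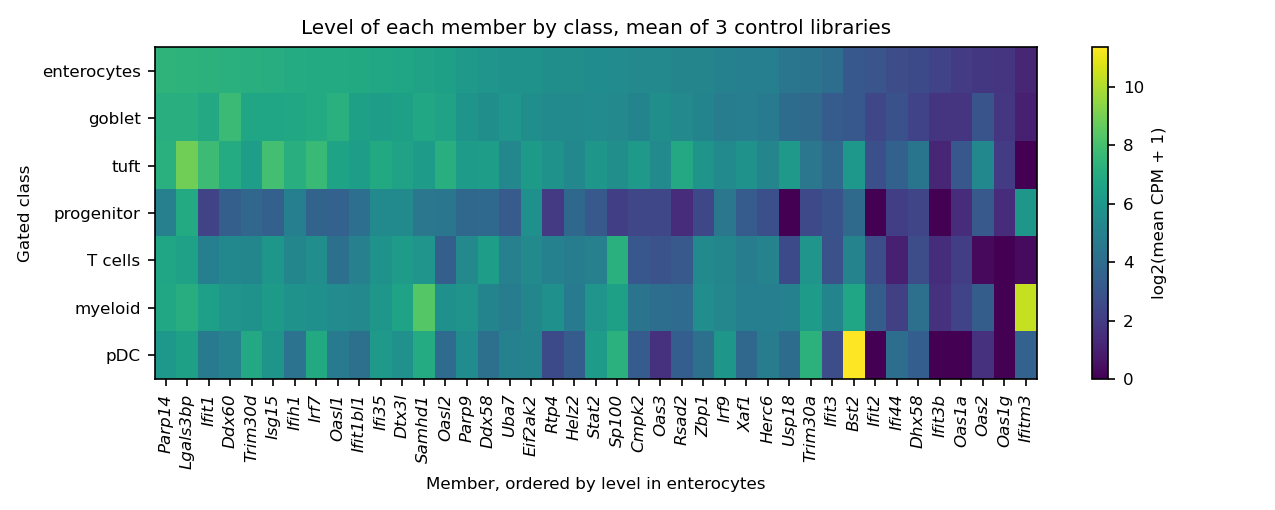
Level of each of the 41 members by class, as log2 of the mean CPM of the 3 control libraries plus 1, with members ordered along the x axis by their level in enterocytes and classes on the y axis. Enterocyte and goblet rows are alike for most members, and the tuft row departs from both for several, such as Oas2, Bst2 and Dhx58. The progenitor row is low, and Ifitm3 in myeloid cells and Bst2 in plasmacytoid dendritic cells (pDC) stand out.

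Against enterocytes, 31 of the 39 members tested were lower and 3 were higher in T cells of the control libraries (edgeR adjusted p under 0.05, library as a block), beside 36.4% lower and 47.1% higher over all 12162 genes tested. The median log2 difference was -1.44 over the members and 0.24 over all genes. In myeloid cells 19 were lower and 5 higher, beside 26.2% and 27.5% of all genes. In progenitors 31 were lower and 1 higher, beside 29.0% and 23.3%. In goblet cells 3 were lower and 1 higher, beside 11.9% and 10.3%, and the count of lower members was 0, 15 and 5 without control replicates 1, 2 and 3. Counts over all genes were not made for these fits, so the members' counts cannot be set beside them.

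In enterocytes the members with most UMIs were Parp14, an ADP-ribosyltransferase, at 168 ± 8.59 CPM, Lgals3bp at 160 ± 6.22 CPM, Ifit1 at 157 ± 3.78 CPM and Ddx60 at 147 ± 9.58 CPM (SD, n = 3 control libraries), followed by Trim30d, Isg15, Ifih1 and Irf7 between 123 and 140 CPM. In goblet cells Ddx60 (216 ± 26.9 CPM), Oasl1 (149 ± 8.18 CPM), Lgals3bp, Parp14, Irf7, Ifit1, Ifih1 and Samhd1 led, the last at 108 ± 13.2 CPM. In T cells these were Sp100, Parp14 (105 ± 5.77 CPM), Lgals3bp (90.9 ± 1.42 CPM), Ddx58, Dtx3l, Isg15, Samhd1 and Trim30a. Parp14 and Lgals3bp were thus among the leading 8 of each of these classes. As CPM without TMM scaling, the mean was highest in tuft cells for 24 members, in enterocytes for 6, in myeloid cells for 6, in goblet cells for 4 and in T cells for Sp100. Of those 24, edgeR with TMM scaling called 4 (Ifih1, Parp9, Rtp4 and Ifi35) lower in tuft cells than in enterocytes and 5 higher. The class with the highest mean was not counted over all genes, so the 24 do not set the members apart from other genes.

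The OAS family holds enzymes that make the activator of RNase L, and relatives that bind RNA without doing so, and 4 of its members were lower in T cells than in enterocytes. Oasl2 was found at 87.0 ± 1.20 CPM in enterocytes and 9.94 ± 3.14 CPM in T cells (SD, n = 3 control libraries; log2 difference -3.69, SE 0.206, edgeR adjusted p = 3.51e-14). Oasl1 was at 122 ± 4.64 CPM in enterocytes and 17.4 ± 5.71 CPM in T cells (log2 difference -3.41). Oas3 had a log2 difference of -3.18 and Oas2 of -4.16, with 0.207 ± 0.0376 CPM in T cells. Oas1a was not called (log2 difference -0.42), and Oas1g was not tested.

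Trim30a, Sp100 and Bst2 were the 3 members higher in T cells than in enterocytes. Sp100, a nuclear body protein, was found at 145 ± 14.9 CPM in T cells and 44.0 ± 2.73 CPM in enterocytes (log2 difference 1.15, SE 0.137, edgeR adjusted p = 1.86e-08). Trim30a, a TRIM protein that restrains inflammatory signalling, was at 59.2 ± 7.03 CPM in T cells, 75.5 ± 4.68 CPM in myeloid cells and 19.9 ± 1.14 CPM in enterocytes. Its neighbour Trim30d went the other way, at 35.7 ± 5.53 CPM in T cells and 140 ± 2.45 CPM in enterocytes (log2 difference -2.54), and the stretches shown above differ at 1 of the bases compared.

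Ifitm3, which blocks the fusion of viruses entering by endosomes, was highest in myeloid cells among the 6 classes. It was found at 1294, 1114 and 1603 CPM in myeloid cells of the control libraries, and at 1.35 ± 0.371 CPM in enterocytes (log2 difference 9.35, SE 0.43, edgeR adjusted p = 2.67e-09). In progenitors it had 17, 0 and 30 UMIs, or 65.8, 0 and 125 CPM, and none was found in tuft cells of these libraries. Samhd1, which depletes the nucleotide pool, was also higher in myeloid cells, at 334 ± 40.5 CPM against 93.1 ± 2.63 CPM in enterocytes (log2 difference 1.30).

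Bst2, the tether that holds budding virions at the cell surface, was at 7.71 ± 0.798 CPM in enterocytes and 105 ± 29.6 CPM in myeloid cells (log2 difference 3.23, edgeR adjusted p = 1.07e-07). In barcodes gated as pDC, a class outside the 6 with 15 to 27 barcodes per control library, it was at 2559, 2387 and 2978 CPM. Bst2 is a classical surface marker of that cell, and the pDC barcodes were gated without it.

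In tuft cells 14 members were lower and 6 higher than in enterocytes, beside 26.3% and 19.0% of all genes, and without TMM scaling 2 were lower and 16 higher, so that directions in this class depend on the scaling. For this comparison without TMM scaling, counts over all genes were not made. The cause of the dependence on scaling was not tested. Oas2, at 38.8 ± 14.4 CPM against 2.60 ± 0.251 CPM in enterocytes, was 3.36 higher on the log2 scale. Lgals3bp, a secreted scavenger-receptor glycoprotein, was at 480 ± 108 CPM in tuft cells and 160 ± 6.22 CPM in enterocytes (log2 difference 1.02). Usp18, the protease that removes ISG15 and limits the type I receptor, was at 69.2 ± 42.8 CPM in tuft cells and at 0 UMIs in progenitors of all 3 control libraries.

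Progenitors were low in nearly every group of the list. The log2 difference from enterocytes was -5.99 for Ifit1, -4.66 for Ddx60, -4.53 for Isg15 and -4.38 for Irf7. Lgals3bp was found at 190, 81.1 and 95.9 CPM in progenitors, and Eif2ak2, the kinase that stops translation when it meets double-stranded RNA, at 50.3, 76.05 and 25.01 CPM. Between 11 and 25 barcodes made up each control sum, and the 3 deepest held 61.0% to 78.6% of its UMIs.

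The second question was how the labels differed. In enterocytes, 30 of the 41 members were called lower and 6 higher under the IE-HuR-/- label (edgeR with TMM scaling, adjusted p under 0.05). Over all 13003 genes tested, 30.8% were lower and 25.5% higher. As CPM, 2 of the 6 hardly differed, Parp14 with means of 168 and 166 CPM and Samhd1 with 93.1 and 93.6 CPM. The median log2 fold change was -0.53 over the members and -0.03 over all genes tested. The summed level of the members was between 2505 and 2606 CPM in the control libraries and between 1847 and 1865 CPM in the others. Without TMM scaling the median of all genes moved to -0.17, and 32 members were lower and 3 higher, beside 5836 and 1974 genes.

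**Figure D2:**
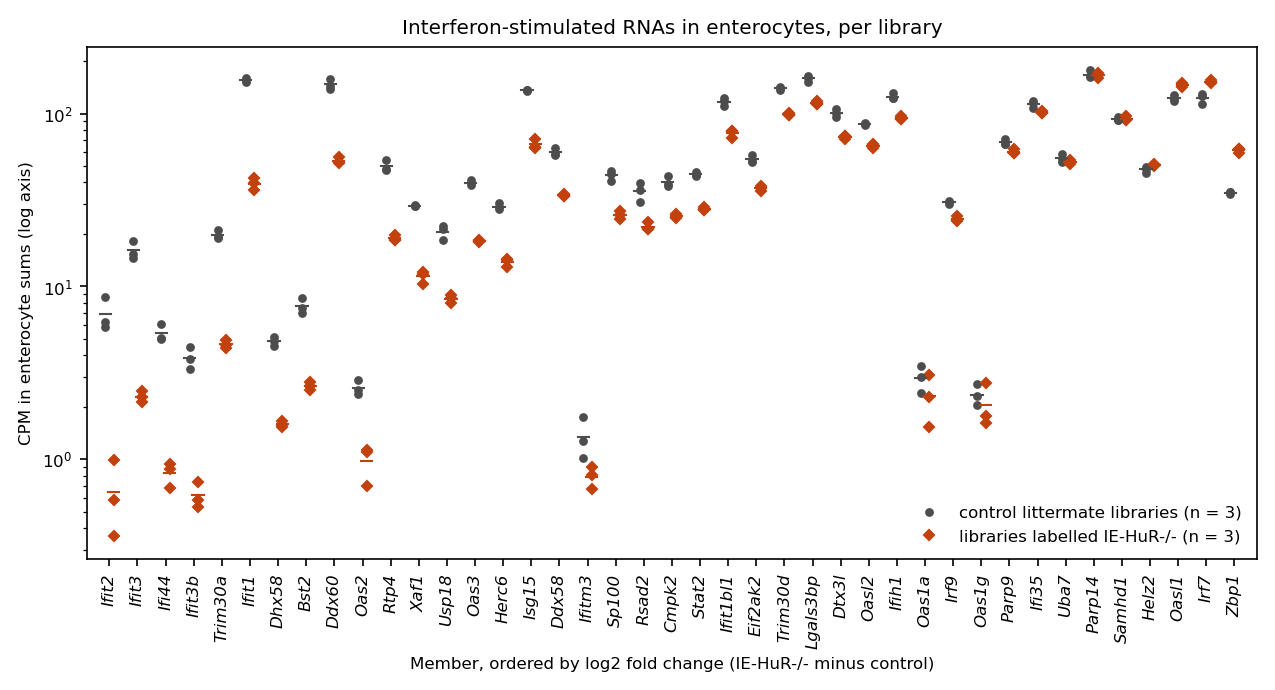
CPM of the 41 members in enterocyte sums of each library on a log axis, for 3 control littermate libraries (grey circles) and 3 libraries labelled IE-HuR-/- (orange diamonds), with horizontal bars at the means and members ordered by log2 fold change. Ifit1 falls from between 153 and 161 to between 36.0 and 42.2 CPM towards the left, and Zbp1 rises from between 34.4 and 35.4 to between 59.0 and 62.7 CPM at the right.

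The Ifit proteins bind foreign RNA and hold it off the ribosome, and all 5 members of the family were lower in enterocytes, with a median log2 fold change of -2.51. Ifit1 was found at 161, 153 and 157 CPM in the control libraries and at 39.5, 36.0 and 42.2 CPM in the others (log2 fold change -1.87, SE 0.051, edgeR adjusted p = 6.84e-18). Ifit3 was at 18.4, 14.7 and 15.4 CPM against 2.48, 2.30 and 2.15 CPM (log2 fold change -2.67, SE 0.0973). The libraries of both labels were fully separated for each. Below 10 CPM, Ifit2 went from 8.71, 6.26 and 5.80 CPM to 0.587, 0.997 and 0.362 CPM (log2 fold change -3.28, SE 0.353), and Ifit3b from 3.86 ± 0.574 to 0.620 ± 0.111 CPM (SD, n = 3). Ifit1bl1, a paralog of Ifit1, showed the smallest difference of the family, from 117 ± 6.22 to 77.0 ± 4.40 CPM.

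Of the 5 sensors of foreign nucleic acid, 4 were lower. Ddx60, a helicase that promotes RIG-I-like receptor signalling, was at 158, 145 and 139 CPM in the control libraries and at 51.8, 52.2 and 56.2 CPM in those labelled IE-HuR-/- (log2 fold change -1.33, SE 0.0476, edgeR adjusted p = 4e-16). Ddx58, which encodes RIG-I, was at 63.4, 58.4 and 57.9 CPM against 33.2, 33.3 and 34.4 CPM (log2 fold change -0.70). Dhx58, which encodes LGP2, was at 4.81 ± 0.306 against 1.60 ± 0.0621 CPM, and Ifih1, which encodes MDA5, at 125 ± 4.63 against 94.3 ± 2.48 CPM.

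Zbp1, the sensor of Z-form nucleic acid that can start necroptosis, rose. It was found at 35.1, 35.4 and 34.4 CPM in the control libraries and at 59.0, 62.2 and 62.7 CPM in the others, with no overlap (log2 fold change 0.95, SE 0.0399, edgeR adjusted p = 6.86e-15).

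In the group of transcription and feedback genes, Stat2, Irf9 and Usp18 were lower and Irf7 was higher. Usp18 was at 22.3, 21.5 and 18.5 CPM against 8.05, 8.60 and 8.90 CPM (log2 fold change -1.15, SE 0.0645). Stat2, a transcription factor of type I and III signalling, was at 44.5 ± 1.11 against 28.1 ± 0.702 CPM, and Irf9, the DNA-binding subunit, at 30.7 ± 0.547 against 24.5 ± 0.953 CPM. Irf7, the factor that amplifies interferon production, was at 114, 126 and 130 CPM against 156, 153 and 150 CPM (log2 fold change 0.45, SE 0.0513, edgeR adjusted p = 2.25e-07).

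Among the OAS family and Eif2ak2, 4 of 7 were lower, Oasl1 was higher, and Oas1a and Oas1g did not pass the test. Oas3 was at 39.5, 38.7 and 41.3 CPM against 18.4, 18.5 and 18.1 CPM (log2 fold change -0.98, SE 0.0467). Eif2ak2 was at 54.4 ± 2.75 against 37.0 ± 1.12 CPM, and Oasl2 at 87.0 ± 1.20 against 65.2 ± 2.01 CPM. Oasl1, which represses translation of Irf7, went from 122 ± 4.64 to 147 ± 4.58 CPM (log2 fold change 0.40, edgeR adjusted p = 2.73e-07).

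Of the 9 genes of the ISG15 system and related ubiquitin or ADP-ribose enzymes, 6 were lower and 1 higher. Usp18, given above with the feedback genes, is counted here again among those lower. Isg15, the ubiquitin-like modifier, was at 136, 135 and 138 CPM in the control libraries and at 63.5, 71.5 and 64.2 CPM in the others (log2 fold change -0.90, SE 0.0481, edgeR adjusted p = 4.47e-13). Herc6, its ligase in mice, was at 30.3, 28.7 and 27.9 CPM against 14.4, 13.0 and 14.3 CPM (log2 fold change -0.93). Uba7, its activating enzyme, had 55.2 ± 2.85 and 52.4 ± 1.34 CPM and was not called (log2 fold change 0.06, SE 0.0464). Trim30a was at 21.2, 19.2 and 19.3 CPM against 4.58, 4.43 and 4.88 CPM (log2 fold change -1.97, SE 0.0657), a larger value than the -0.36 (SE 0.0422) of Trim30d. Parp14 was called higher, but its values overlapped between labels (log2 fold change 0.12, and -0.02 without TMM scaling).

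Among inhibitors of entry, budding and replication, Bst2, Rsad2, Cmpk2 and Ifitm3 were lower and Samhd1 was called higher with overlapping values (log2 fold change 0.14). Rsad2, which encodes viperin, was at 39.5, 36.2 and 30.7 CPM against 21.4, 21.5 and 23.6 CPM (log2 fold change -0.55, SE 0.0796). Its neighbour Cmpk2, a mitochondrial nucleotide kinase, was at 40.3 ± 3.01 against 25.4 ± 0.722 CPM. Bst2 was at 7.71 ± 0.798 against 2.67 ± 0.144 CPM (log2 fold change -1.40). The enterocyte call of Ifitm3 was lost in 5 alternatives, among them DESeq2, doubled gates and the removal of replicate 2 of either label. That of Parp14 was lost in 6, among them the removal of control replicate 2 and of IE-HuR-/- replicate 1 or 3, and that of Helz2 in 4, none of which left out a library.

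Of the 7 remaining members, 5 were lower, Helz2 was higher and Ifi35 was not called. Xaf1, an antagonist of inhibitors of apoptosis, was at 29.1, 29.2 and 29.4 CPM against 10.4, 12.2 and 11.8 CPM (log2 fold change -1.22, SE 0.055, edgeR adjusted p = 2.23e-14). Rtp4, a chaperone of receptors at the membrane, was at 47.1, 47.5 and 53.8 CPM against 18.4, 19.9 and 18.7 CPM (log2 fold change -1.24). Sp100 was at 46.3, 44.7 and 41.0 CPM against 27.2, 24.6 and 25.99 CPM (log2 fold change -0.63). Ifi44 went from 5.35 ± 0.609 to 0.833 ± 0.132 CPM, and Helz2, a helicase and coactivator, from 47.5 ± 1.81 to 50.6 ± 0.713 CPM (log2 fold change 0.23).

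The motif was present upstream or just downstream of the start for 16 of the 26 members lower in enterocytes that had a window, for 0 of 4 that were higher (Irf7, Oasl1, Helz2 and Samhd1), and for 2 of 4 not called (Oas1a and Oas1g). Over all 9965 genes tested in enterocytes that had a window the share was 3.77%. These counts are a description. Zbp1, Parp14, Usp18, Dhx58, Oas2, Parp9 and Rtp4 had no window.

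**Figure D3:**
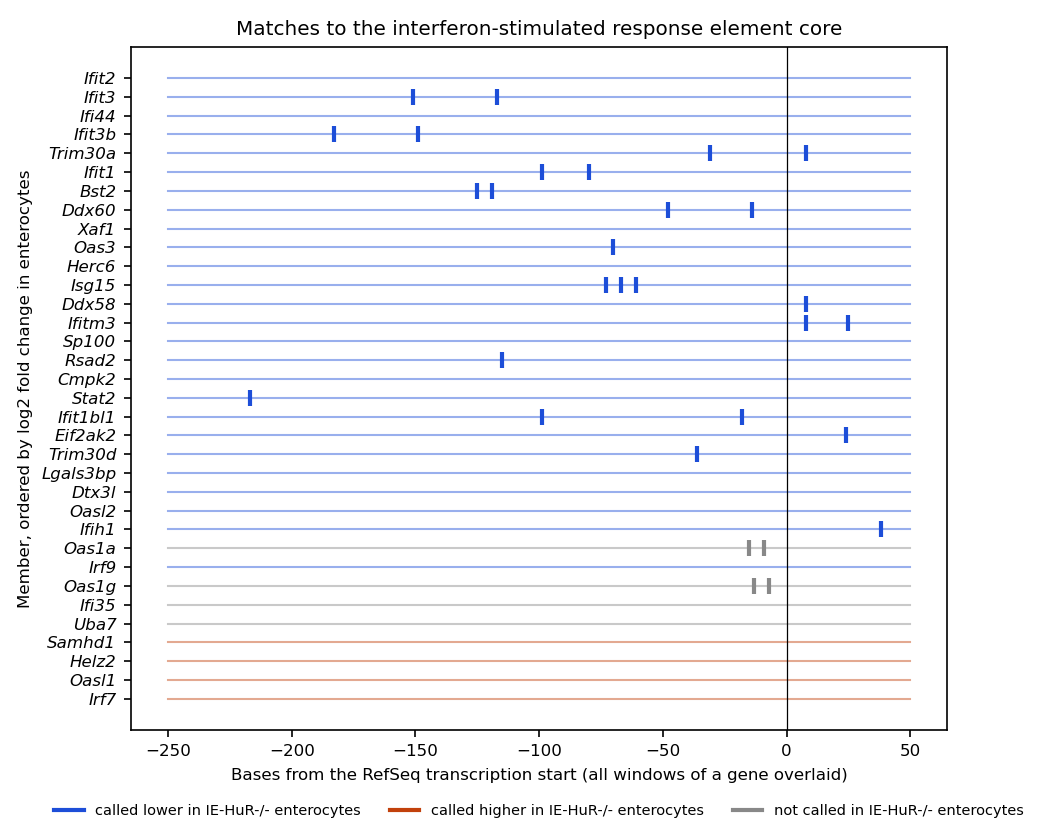
Positions of matches to the response element core on either strand from 250 bases before to 50 bases after the start of transcription for 34 members, ordered by log2 fold change in enterocytes, with blue for members called lower, orange for higher and grey for not called. Matches (vertical ticks) are found for 18 members, and for none of the 4 called higher.

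Enterocytes were then divided by a UMI of Ada, Nt5e or Slc28a2, genes of the villus tip, because all 3 were themselves higher in the libraries labelled IE-HuR-/-. Among enterocytes with a tip-gene UMI, 30 members were lower and 6 higher, beside 30.2% and 24.8% of all genes tested. Among those without one, 27 members were lower and 1 was higher, beside 12.2% and 12.7% of all genes tested. Ifit2, Ifit3b, Oas1a, Oas1g, Oas2 and Ifitm3 were not tested in this set. Its sums held 2114723 to 4927062 UMIs per library, against 42218663 to 68085730 with a tip-gene UMI. Fewer differences could thus be detected in it, and the counts of both sets cannot be compared directly. Without a tip-gene UMI, Ifit1 was at 179, 136 and 153 CPM in the control libraries and at 30.3, 26.9 and 24.04 CPM in the others (log2 fold change -2.42). Isg15 was at 151 ± 29.2 against 46.7 ± 9.02 CPM there. Zbp1 was at 39.0 ± 7.44 against 65.6 ± 3.45 CPM (log2 fold change 0.84). Irf7 was not called there, at 96.6, 111 and 108 CPM against 102, 102 and 96.6 CPM, and Oasl1 had a log2 fold change of -0.17. Among enterocytes with a tip-gene UMI the log2 fold changes of Irf7 and Oasl1 were 0.45 and 0.39. The difference between both sets of enterocytes was not tested, and since the genes that divide them differ between labels themselves, the division does not place a change in one set.

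To see how the RNA was spread over cells, each enterocyte barcode with at least 2000 UMIs was thinned to 2000 UMIs. This kept 2503 to 5189 barcodes per library and left out 2991 to 5659 shallower ones, which the values below do not cover. A thinned enterocyte carried 4.72, 4.59 and 4.65 member UMIs on average in the control libraries and 3.577, 3.597 and 3.539 in those labelled IE-HuR-/-. The median was 3 in all 6 libraries. Barcodes with at least 10 member UMIs made up 10.2%, 9.17% and 10.2% in the control libraries and 4.80%, 4.34% and 4.27% in the others. The 10% of barcodes with most member UMIs held 33.9% to 36.4% of them in control libraries and 29.8% to 30.9% in the others. Barcodes without a member UMI made up 6.03% to 7.75% in control libraries and 8.57% to 9.61% in the others. Summed after this thinning, an alternative added once the data had been seen, Ifit1 had a log2 fold change of -1.71.

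**Figure D4:**
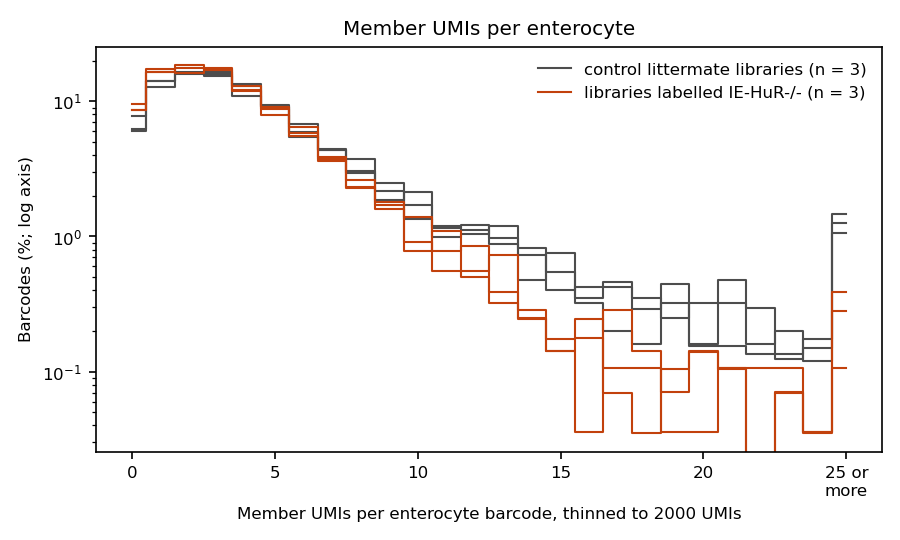
Share of enterocyte barcodes (log axis) by number of member UMIs after thinning each barcode to 2000 UMIs, with 25 or more in 1 bin. Barcodes under 2000 UMIs are left out. Lines show 3 control libraries (grey) and 3 libraries labelled IE-HuR-/- (orange). The lines of the control libraries lie lower at 0 and higher in the tail, with 9.17% to 10.2% of barcodes at 10 or more against 4.27% to 4.80%.

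In goblet cells, the mucus-secreting epithelial lineage, 14 of 39 members tested were lower and 6 higher, beside 11.6% and 13.3% of 9770 genes tested. The medians were -0.26 over the members and -0.02 over all genes. Without TMM scaling, which moved the median of all genes to -0.18, 20 members were lower and 4 higher, beside 2069 and 739 genes. Ifit3 was found at 9.59, 9.54 and 7.31 CPM against 1.93, 0.257 and 0.874 CPM, and Ifi44 at 6.24, 4.71 and 7.79 CPM against 1.93, 1.29 and 0.219 CPM. Both were below 10 CPM under each label.

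Of goblet members above that level, Ifit1 was at 130, 116 and 104 CPM against 56.0, 25.2 and 28.2 CPM (log2 fold change -1.50, SE 0.305, edgeR adjusted p = 0.02). That call was lost in 5 alternatives, with the stricter cell filter and with any 1 control library or IE-HuR-/- replicate 3 left out. Trim30a was at 14.3, 13.9 and 13.98 CPM against 6.57, 2.83 and 4.81 CPM (log2 fold change -1.36). Ddx58 was at 51.5, 47.8 and 51.2 CPM against 25.5, 19.5 and 18.1 CPM (log2 fold change -1.08). Zbp1 rose in goblet cells too, from 37.8, 28.4 and 36.7 CPM to 86.2, 72.0 and 83.7 CPM (log2 fold change 1.41, SE 0.117, edgeR adjusted p = 2.29e-07). Irf7 rose from 124 ± 4.31 to 174 ± 2.87 CPM (log2 fold change 0.64) and Oasl1 from 149 ± 8.18 to 182 ± 6.52 CPM (log2 fold change 0.45). Ifit1bl1 was called higher in goblet cells with overlapping values (log2 fold change 0.58), a call lost in 6 alternatives, and lower in enterocytes. The count of higher members was 3 when replicate 1 of either label, or replicate 3 of the IE-HuR-/- label, was left out. Over all genes 1063 (control replicate 1), 1353 and 910 (IE-HuR-/- replicates 1 and 3) were then higher, against 1304 with all libraries. The part of enterocyte RNA in the goblet sums was not tested.

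In tuft cells Isg15 alone passed the test among 34 members, beside 0.486% of 6383 genes lower and 0.282% higher. It was found at 297, 225 and 225 CPM against 96.5, 80.9 and 72.8 CPM, with no overlap (log2 fold change -1.60, SE 0.197, edgeR adjusted p = 9.24e-05). Without the 5% of barcodes with most UMIs Isg15 was not called (edgeR adjusted p = 0.234). The unadjusted edgeR p was under 0.05 for 15 of 34 members and for 652 of 6383 genes. The median log2 fold change was -0.70 over the members and 0.00 over all genes. Between 14 and 49 barcodes made up each tuft sum, and the count of lower members was 3 without control replicate 1 and 6 without control replicate 3. Over all genes 45 and 48 were then lower, against 31 with all libraries.

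In progenitors 6 members could be tested and none was called, beside 0.0274% of 3650 genes lower and 0.0548% higher, and DESeq2 called none either. None of the 6 had an unadjusted edgeR p under 0.05, beside 277 of 3650 genes. Ifitm3 was at 163, 152 and 104 CPM in progenitors labelled IE-HuR-/- (log2 fold change 1.07, SE 0.745, edgeR adjusted p = 0.824).

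In T cells, which do not express villin, 9 of the 36 members tested were lower and none was higher, beside 2.67% and 2.84% of 11482 genes. Ifitm3 was left out by the count filter and stood at 0.187, 0.552 and 0 CPM against 2.43, 1.70 and 7.92 CPM. Ifit3b and Ifi44, left out too, were separated between labels and lower under the IE-HuR-/- label. Each of these was below 10 CPM. The unadjusted edgeR p was under 0.05 for 15 of 36 members and for 2143 of 11482 genes. DESeq2 called 4 members lower and none higher, and the medians were -0.18 over the members and 0.00 over all genes. Ifit1 was found at 29.0, 35.5 and 21.3 CPM against 11.8, 11.3 and 9.47 CPM (log2 fold change -1.45, SE 0.188, edgeR adjusted p = 0.000499). Ddx60 was at 38.1, 44.4 and 34.3 CPM against 25.2, 25.5 and 25.5 CPM (log2 fold change -0.65). Both were separated between labels. The count of lower members was 4 when control replicate 1 or replicate 1 or 3 of the IE-HuR-/- label was left out, 5 when replicate 2 of either label was, and 13 without control replicate 3. Over all genes 856 were lower and 511 higher without control replicate 3, against 307 and 326 with all libraries. With any other library left out, 116 to 268 genes were lower.

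Rtp4 was at 29.4, 28.9 and 34.1 CPM in T cells against 24.1, 21.8 and 23.8 CPM (log2 fold change -0.43). Isg15 was at 63.4 ± 1.52 against 51.2 ± 6.19 CPM (log2 fold change -0.33), and Lgals3bp at 90.9 ± 1.42 against 77.6 ± 0.596 CPM (log2 fold change -0.25). Ifit3, Usp18, Cmpk2 and Rsad2 were the 4 others that fell, all below 10 CPM in T cells under each label. Under DESeq2 and with most single libraries left out, the calls of Isg15, Lgals3bp, Rtp4, Cmpk2 and Rsad2 were lost (in 8, 9, 6, 8 and 8 of the alternatives run). For these RNAs T cells were well below enterocytes, so the enterocyte RNA in T cell barcodes was set beside them.

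The reference share of the enterocyte level amounted, for Ifit1, to 14.96, 19.45 and 10.02 CPM of the T cell level in the control libraries and to 2.88, 2.62 and 3.198 CPM in the others. Above this share Ifit1 stood at 14.03, 16.1 and 11.3 CPM against 8.89, 8.65 and 6.28 CPM, which did not overlap. Ddx60 stood at 23.4, 25.9 and 25.4 CPM above it, against 21.4, 21.7 and 21.2 CPM. After this subtraction, added after the data had been seen, the labels overlapped for Ifit3, Isg15, Cmpk2 and Lgals3bp and not for Ifit1, Ddx60, Usp18, Rsad2 and Rtp4. This outcome depends on the RNA that sets the share. With the ratio of Vil1, the villin gene, in place of the 6 RNAs, Ifit1 stood at 7.40, 7.885 and 7.60 CPM against 7.77, 7.70 and 5.34 CPM, Ddx60 at 16.9, 18.15 and 22.2 CPM against 19.97, 20.3 and 19.96 CPM, and the labels overlapped for all 9. With Epcam, an epithelial surface protein, they overlapped for 8, and Ddx60 stood slightly higher in the libraries labelled IE-HuR-/-. With the 6 RNAs, members not called in T cells were separated too, such as Irf7, which was lower in the libraries labelled IE-HuR-/-. Sp100, Samhd1, Uba7 and Parp14 were separated and higher there. The share of all genes separated after a subtraction was not computed, so these outcomes do not set the 9 apart. None of these subtractions gives a test, and the part of enterocyte RNA in the T cell differences was not tested.

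As CPM without TMM scaling, Irf9, Ddx58, Dhx58, Zbp1, Oas1a, Herc6, Trim30a, Bst2 and Sp100 had a higher control mean in T cells than in enterocytes. With TMM scaling, edgeR called only Trim30a, Bst2 and Sp100 higher in T cells, and Irf9 (log2 difference -0.34) and Herc6 (-0.40) lower. Between labels, none of the members listed here was called in T cells by edgeR, beside 2.67% lower and 2.84% higher over all genes tested. With so few members, the lack of a call does not set them apart from other genes. Trim30a was at 65.6, 51.7 and 60.4 CPM in T cells of control libraries and 69.3, 59.4 and 69.7 CPM in the others (log2 fold change 0.13, SE 0.0913, edgeR adjusted p = 0.472). Ddx58 was at 79.2 ± 8.62 and 81.7 ± 2.65 CPM (log2 fold change 0.02, SE 0.0795), and Sp100 at 145 ± 14.9 and 164 ± 6.65 CPM (log2 fold change 0.15, SE 0.0703).

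**Figure D5:**
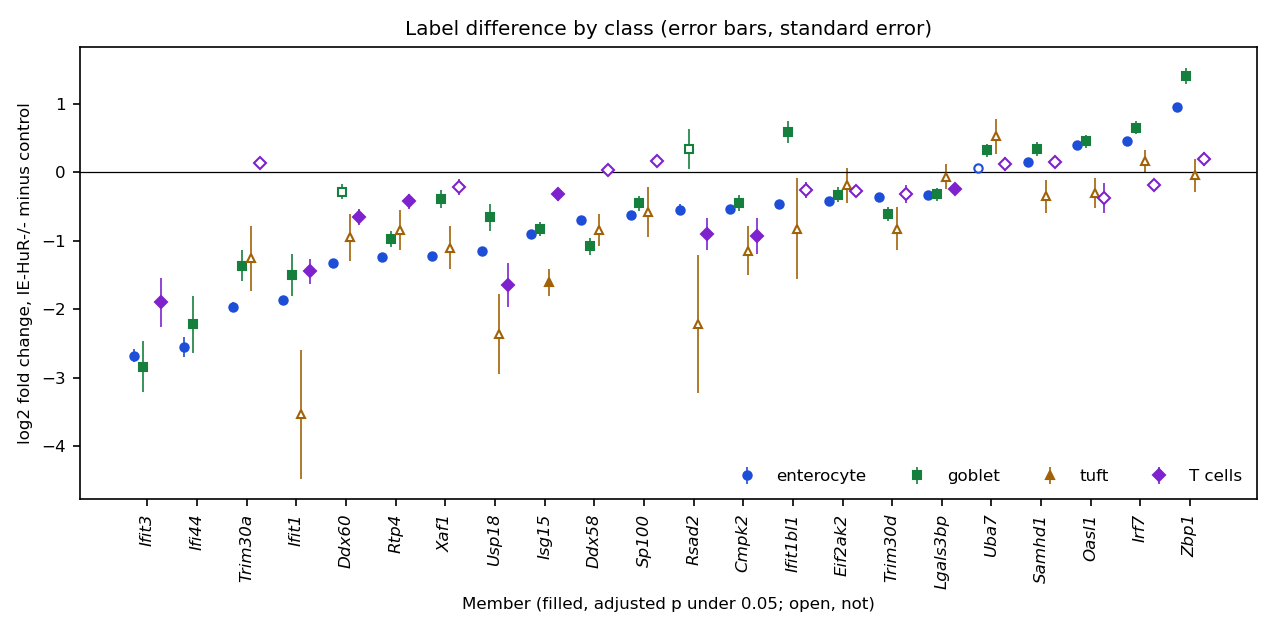
Log2 fold change between labels with its standard error for the 22 members called in goblet, tuft or T cells, in enterocytes (blue circles), goblet cells (green squares), tuft cells (brown triangles) and T cells (purple diamonds), filled where the edgeR adjusted p was under 0.05. Trim30a lies at -1.97 in enterocytes and at 0.13 in T cells, and Zbp1 at 0.95 and 1.41 in enterocytes and goblet cells.

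The difference between the label effects in enterocytes and T cells was tested itself, in an edgeR fit of all 6 classes with the library as a block. The effect was lower in enterocytes for 11 of 41 members and higher for 2, beside 5.02% and 3.3% of 12835 genes. Trim30a had the smallest adjusted p, with a difference of -2.09 in enterocytes minus T cells on the log2 scale (SE 0.155, edgeR adjusted p = 2.16e-13). Xaf1 (-0.99), Sp100 (-0.77), Ddx58 (-0.71), Rtp4 (-0.80), Dhx58 (-1.52) and Ifit2 (-3.39) were likewise lower. Zbp1 (0.77) and Irf7 (0.64) were higher in enterocytes. For Ifit1 the difference was -0.43 (SE 0.586, edgeR adjusted p = 0.721) and for Ifit3 -0.76 (SE 0.67), and neither was called. This fit takes 1 spread per gene over all 6 classes, so its errors and counts of calls also hold the scatter of the other classes. In the fits of each class alone, Ifit1 had -1.87 (SE 0.051) in enterocytes and -1.45 (SE 0.188) in T cells. The lack of a call thus does not show that both cell types were alike. Without IE-HuR-/- replicate 2 the count of lower members was 7, and without control replicate 1 or any 1 of the IE-HuR-/- replicates the count of higher members was 1. Counts over all genes were not made with a library left out of this fit.

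In myeloid cells 18 members could be tested and none was called, beside 0% of 3895 genes lower and 0.231% higher. The unadjusted edgeR p was under 0.05 for 1 of 18 members and for 254 of 3895 genes, and DESeq2 called no member. Ifitm3 was at 1294, 1114 and 1603 CPM against 1014, 1380 and 705 CPM, and Samhd1 at 334 ± 40.5 against 285 ± 88.0 CPM, with overlap for both. Ifit1 was at 22.0, 231 and 0 CPM in myeloid cells of control libraries and 3.79, 6.22 and 11.5 CPM in the others. The high value came from control replicate 2, in which the reference enterocyte RNAs stood at a ratio of 0.314 to their enterocyte level and the 3 deepest barcodes held 37.3% of the UMIs. In enterocytes of that library Ifit1 stood at 153 CPM, below the myeloid value, and the source of that value was not tested. The label effect differed from that in enterocytes for Trim30a, by -1.98 in enterocytes minus myeloid cells on the log2 scale (SE 0.308, edgeR adjusted p = 8.5e-05), beside 0.319% of genes lower and 0.46% higher, and for 3 members without control replicate 2. For the fit without that library, a count over all genes was not made.

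The rest of the pathway was read from lists of its ligands, receptors, signal carriers and inhibitors, and the genes named from them were chosen with their values seen. The background given above for each class (30.8% lower and 25.5% higher in enterocytes, 2.67% and 2.84% in T cells) holds for these counts too. No UMI of Ifnb1, Ifna1, Ifna2, Ifna4, Ifna5, Ifnl2 or Ifnl3 was found in the 6 libraries. With 428980031 UMIs in all, a count of 0 allows up to 0.00699 CPM at 3 counts over the whole series, and covers counting error only. Ifnk, an epithelial type I interferon, had 17 UMIs in the control libraries and 14 in the others. Ifng, the type II interferon, was the ligand that could be tested, in T cells, where it rose from 6.55, 6.07 and 6.76 CPM to 12.7, 12.0 and 16 CPM (log2 fold change 1.05, SE 0.187, edgeR adjusted p = 0.0017).

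Of the 6 receptor chains, 3 were lower and 2 higher in enterocytes. Ifnar1 and Ifnar2, the chains of the type I receptor, went from 26.9 ± 1.17 to 20.6 ± 0.313 CPM (log2 fold change -0.25) and from 24.2 ± 1.04 to 17.3 ± 0.55 CPM (log2 fold change -0.34). Ifnlr1, the lambda-specific chain, had 13.3 ± 0.271 and 13.3 ± 0.499 CPM and was called higher with overlapping values (log2 fold change 0.14, SE 0.0569, edgeR adjusted p = 0.0453). Ifngr2 of the type II receptor fell from 200.5 ± 5.89 to 163 ± 4.27 CPM (log2 fold change -0.16). Ifngr1, the ligand-binding chain of the type II receptor, rose from 112 ± 1.64 to 161 ± 1.25 CPM (log2 fold change 0.65, edgeR adjusted p = 1.75e-11). Of 10 signal carriers none was lower and 5 were higher in enterocytes, among them Irf1, a factor induced by type II interferon (log2 fold change 0.61, SE 0.0465). Of 6 inhibitors 3 were higher and none lower, with Socs1, the brake on JAK kinases, at 0.78.

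Of 7 sensors and adaptors tested 3 were lower and 2 higher, with Tlr3, the endosomal receptor of double-stranded RNA, at -0.71. Of 38 other interferon-induced genes tested in enterocytes 19 were lower and 10 higher. Cxcl10, a chemokine that draws T cells, fell from 8.60, 7.74 and 8.59 CPM to 1.67, 0.976 and 1.39 CPM (log2 fold change -2.50, SE 0.128, edgeR adjusted p = 9.44e-12). In T cells none of 37 tested was lower and 5 were higher.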

How the data were processed

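For each of 6 droplet libraries the authors deposited a matrix of raw counts (UMIs by gene and barcode), made with Cell Ranger (6.1.2 per the file headers) on mm10 per the labels. The labels name a 5′ kit, whereas the methods name a 3′ kit, another Cell Ranger version and a human reference. Both readings concern all libraries alike.

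Barcodes with at least 200 genes were gated by marker UMIs of each class, none of them a member, and no doublet caller was run. Raw counts were summed per library and class. Sums were tested with edgeR 4.0.16 (TMM, quasi-likelihood, filterByExpr with a minimum count of 10, Benjamini-Hochberg over all tested genes, threshold 0.05) after the scripts had been tested on simulated data, and DESeq2 1.42.0 was an alternative. Library totals ran from 59518012 to 91818560 UMIs. The p-values measure the spread between 3 libraries per label.

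Members, gene lists and tests were chosen with earlier results of these data known. In enterocytes up to 14 called members of at least 10 CPM, by size of fold change, and up to 5 in each other class were named, and for the baseline up to 8 per class by control mean. Other genes named were chosen after their values were seen. Alternatives changed the cell filter, gates, scaling, test, count filter, depth and libraries used.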

Additional observations from a re-analysis of the deposited data

Results flagged for a closer look

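The label effect (log2 fold change of libraries labelled IE-HuR-/- over control libraries) differed between enterocytes and T cells for 13 members by an edgeR test of the difference itself, beside 5.02% of genes lower and 3.3% higher. The difference, enterocytes minus T cells, was -2.09 for Trim30a, -3.39 for Ifit2, -1.52 for Dhx58, -1.34 for Bst2, -0.99 for Xaf1, -0.96 for Oas3, -0.81 for Herc6, -0.80 for Rtp4, -0.77 for Sp100, -0.71 for Ddx58 and -0.50 for Stat2. It was 0.77 for Zbp1 and 0.64 for Irf7. Between enterocytes and myeloid cells it was -1.98 for Trim30a. T cell sums hold a share of enterocyte RNA, which moves T cell values towards those of enterocytes, and its part in each difference was not tested.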

How the results depend on the processing

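In enterocytes the count of lower members stayed between 27 and 32 under all alternatives run. The lower ones among all genes numbered 1051 to 5836 under these alternatives, against 4003 with the settings used above. The count of higher members, 6, was 3 without TMM scaling and 1 among enterocytes without a tip-gene UMI, where Oasl1 (-0.17) and Samhd1 (-0.16) changed sign, as did Parp14 (-0.0166) without TMM scaling. Over all genes 1974 and 1094 were then higher, in that order, against 3316. The sums without a tip-gene UMI were much shallower, and some members were not tested there. In goblet cells lower members numbered 10 to 20, while the lower ones among all genes numbered 684 to 2069. In tuft cells the 1 lower member became 3 with DESeq2, 8 without a count filter, 3 with the replicate block and 2 without the 5% of barcodes with most UMIs. The lower ones among all genes numbered 26, 108, 54 and 96 in that order, against 31 with the settings used above. In T cells the 9 lower members became 4 with DESeq2 and 4 with the replicate block, and 1 was higher without a count filter. Among all genes 266 and 212 were lower with DESeq2 and with the block, against 307. Without a count filter 533 genes were higher, against 326. In goblet cells against enterocytes 5 were lower with doubled gates, and in tuft cells 2 were lower and 16 higher without TMM scaling. Members with a higher label effect in enterocytes than in T cells numbered 1 without TMM scaling and 1 with doubled gates. Counts over all genes were not made for alternatives of the comparisons with enterocytes or of the differences in label effect. The cause was not tested in these cases.

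With 1 library left out, the ranges were 29 to 31 lower and 5 to 7 higher in enterocytes, 10 to 13 lower and 3 to 8 higher in goblet cells, 1 to 6 lower in tuft cells, and 4 to 13 lower and 0 to 1 higher in T cells. Over all genes 3566 to 3777 were then lower and 2961 to 3460 higher in enterocytes. In goblet cells 746 to 1095 genes were lower and 910 to 1353 higher. In tuft cells 14 to 48 genes were lower, and in T cells 116 to 856 were lower and 148 to 511 higher. Against enterocytes, goblet cells had 0 to 15 lower and 1 to 2 higher. For the label effect in enterocytes minus T cells the ranges were 7 to 12 lower and 1 to 3 higher, and minus myeloid cells 1 to 3 lower. For these and for goblet cells against enterocytes, counts over all genes were not made. Replicate numbers did not pair the libraries (correlations of deviations -0.167 to 0.168), so the replicate block is given here alone. Progenitor and tuft sums of few barcodes limit what could be detected.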
